A study of Mus musculus with 6 samples.

Results

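The genes described here are Lrp8 and 8 further genes of low-density lipoprotein (LDL) receptor biology, Vldlr, Lrp1, Lrp2, Lrp4, Lrp10, Lrp12, Sorl1 and Dab2. They were selected by gene symbol with their values in the contrast of Axin1-overexpressing against control libraries already seen, so their differences between the groups are a description and support nothing by themselves. All 9 were found among the 22958 gene entries, and 8 of the 9 passed the filter on low counts, Lrp2 being the exception. The libraries held polyadenylated RNA of CD31-sorted (PECAM1-sorted) brain endothelial cells from E11.5 mouse embryos of the strain C57BL/6 x 129/Sv, whose mothers had been given tamoxifen at E9.5. The 3 Axin1 libraries carry the label Cdhrs5CreERT2:R26Axin1IL+/- and overexpress Axin1, a scaffold protein of the beta-catenin destruction complex. The 3 control libraries carry the label Cdhrs5CreERT2:R26Axin1IL-/- and have wildtype Axin1. By these labels both groups carried the tamoxifen-dependent Cre recombinase CreERT2, and both had received tamoxifen. The design asks which genes change in these cells when Axin1 is overexpressed. The descriptions number biological replicates within each group but name no embryos, pools or litters, so each p-value measures only the spread between these libraries. The sample titles share the number 1813 between library 1 of both groups and 1814 between library 2 of both groups. What these numbers stand for was not given, and the main test does not use them.

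LDL receptor family members are single-pass membrane proteins that bind ligands through cysteine-rich repeats and are taken up in clathrin-coated vesicles, where adaptor proteins bind a short motif in their cytoplasmic tails. Lrp8 (ApoER2) and Vldlr bind the secreted protein reelin and pass its signal to the adaptor Dab1 in migrating neurons. Lrp1 and Lrp2 (megalin) take up many ligands, Lrp4 is the agrin receptor of the neuromuscular junction, and Lrp10 and Lrp12 are less studied relatives. Sorl1 combines LDL receptor repeats with a VPS10 domain and sorts cargo between the Golgi and endosomes, and Dab2 is a clathrin adaptor for these receptors.

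Library totals ranged from 10772492 to 14234409 reads assigned to genes. Levels are given as TMM-normalised CPM (reads scaled to library size), or as the deposited RPKM where genes are compared with each other. Axin1 itself had 69.4 ± 9.24 CPM in Axin1 libraries and 21.1 ± 3.74 CPM in control libraries (SD, n = 3 each), a log2 fold change of 1.72 (SE 0.17, adjusted p = 0.0103, edgeR). The deposited counts do not separate reads of the allele at R26 from those of the Axin1 gene. That call was lost without control library 2 (adjusted p = 0.0915) and without Axin1 library 2 (adjusted p = 0.0721). The sorting marker Pecam1 had 1240 ± 77.0 CPM in Axin1 libraries and 1310 ± 131 CPM in control libraries, and 12 endothelial markers summed to 8280 to 9470 CPM in Axin1 libraries and to 8330 to 8780 CPM in control libraries. Single endothelial markers differed more than their sum, and in both directions. Of the 12, 7 had a positive log2 fold change and 5 a negative one. By edgeR 0 of the 12 were called, beside 0.845% of all tested genes. Esam, named after its values were seen, was lower without overlap and was not called (log2 fold change -0.31, adjusted p = 0.176, edgeR). It had 1080, 1030 and 925 CPM in Axin1 libraries and 1320, 1210 and 1230 CPM in control libraries. Cdh5, the vascular endothelial cadherin gene, had 981, 945 and 924 CPM in Axin1 libraries and 432, 502 and 846 CPM in control libraries, without overlap, and was not called (log2 fold change 0.68, adjusted p = 0.218, edgeR). DESeq2 called it (adjusted p = 0.046), and edgeR did so without control library 3 (log2 fold change 1.01, adjusted p = 0.00222). Cldn5, a tight junction gene named after its values were seen, had 186, 275 and 242 CPM in Axin1 libraries and 44.0, 48.2 and 196 CPM in control libraries (log2 fold change 1.29, adjusted p = 0.395). Across all 12661 tested genes the median log2 fold change was 0.02.

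Lrp8 was the member that stood apart. It is listed under the RefSeq identifiers NR_033496 and NM_001080926. Its read counts were 329, 397 and 503 in Axin1 libraries 1, 2 and 3, and 936, 1575 and 1239 in control libraries 1, 2 and 3. As normalised values these were 26.3, 27.3 and 43.5 CPM in Axin1 libraries and 81.9, 121 and 114 CPM in control libraries. Every Axin1 library lay below every control library, and the highest Axin1 library, number 3, was still well under the lowest control library, number 1. The means were 32.4 ± 9.64 CPM in Axin1 libraries and 106 ± 20.7 CPM in control libraries (SD, n = 3 each). The log2 fold change was -1.71 (SE 0.24, 95% interval -2.25 to -1.16), which makes Lrp8 3.26-fold lower in Axin1 libraries, with an adjusted p of 0.0347 by edgeR's quasi-likelihood test over all genes. In these bulk samples, fewer cells of a type and less RNA per cell cannot be told apart.

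Lrp8 was the only one of the 8 tested members past the adjusted p of 0.05, and the only one of the 9 whose groups did not overlap. Over all tested genes 0.845% were called in either direction and 0.49% were called lower in Axin1 libraries, while 12.4% were lower with no overlap between the groups. Since the members were selected with this contrast in view, nothing is read from the count of 1. By log2 fold change Lrp8 ranked 48 from the lowest among all tested genes and 12 from the lowest among the 62 genes called lower. The Lrp8 call held in 10 of 14 alternative settings and was lost without Axin1 library 1 (adjusted p = 0.0586), Axin1 library 2 (0.146), control library 1 (0.0543) or control library 2 (0.198). The log2 fold change stayed between -1.98 and -1.5 in all 14.

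**Figure D1:**
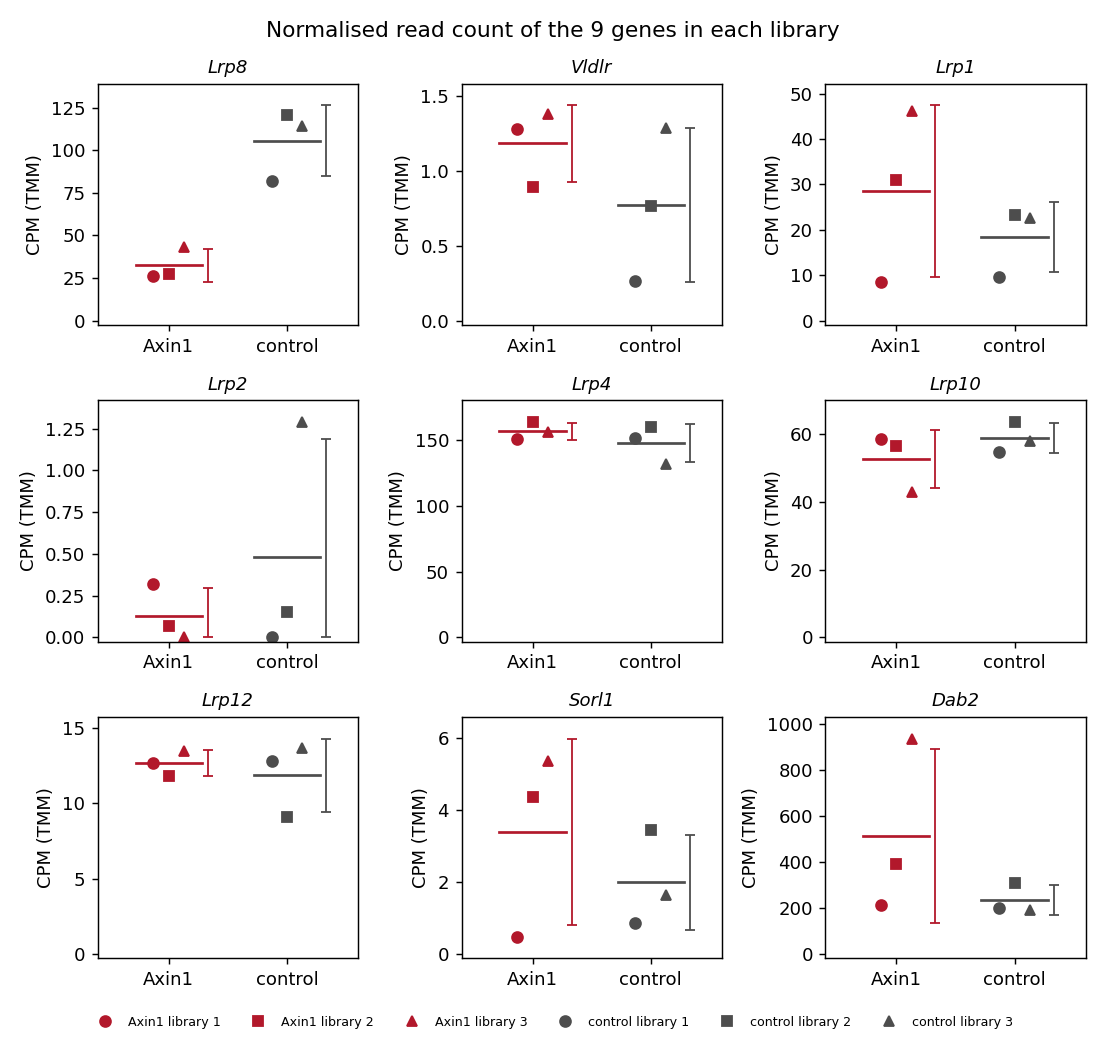
Normalised read count (CPM, linear axes from 0, a separate scale for each gene) of the 9 genes in the 3 Axin1 libraries (red, left) and the 3 control libraries (grey, right). Points are libraries, horizontal lines are group means and bars are 1 SD, whose lower end is stopped at 0 for Lrp2; Lrp8 at 26.3 to 43.5 CPM in Axin1 libraries and 81.9 to 121 CPM in control libraries is the only gene whose groups do not overlap.

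Vldlr, the other reelin receptor, was close to the limit of these libraries. It had 16, 13 and 16 reads in Axin1 libraries 1, 2 and 3, and 3, 10 and 14 reads in control libraries 1, 2 and 3. The groups overlapped: control library 3 lay within the Axin1 range and control library 1 was the lowest of all. At 1.28, 0.895 and 1.38 CPM in Axin1 libraries and 0.263, 0.767 and 1.29 CPM in control libraries, the log2 fold change was 0.61 with an interval of -0.83 to 2.06. This interval covers a decrease as well as an increase, so a difference was not detectable in these libraries. Per length, Lrp8 exceeded Vldlr 23.3, 34.6 and 35.6 times in Axin1 libraries and 354, 179 and 100 times in control libraries, ratios that rest on few Vldlr reads.

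The large endocytic receptors differed between libraries more than between groups. Lrp1, which clears protease complexes and lipoproteins, had 8.55, 31.0 and 46.1 CPM in Axin1 libraries and 9.54, 23.2 and 22.5 CPM in control libraries. The lowest and the highest of the 6 libraries were both Axin1 libraries, numbers 1 and 3, and the log2 fold change was 0.63 (SE 0.65, interval -0.97 to 2.24). Lrp2, the receptor of absorptive epithelia, had 4, 1 and 0 reads in Axin1 libraries and 0, 2 and 14 reads in control libraries. Control library 3 held most of its reads, and it was not tested. The counts of 0 allow up to 0.258 CPM in Axin1 library 3 and 0.256 CPM in control library 1 (3 reads, counting error only).

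Lrp4, the co-receptor through which agrin acts on muscle, was among the steadiest members. It had 151, 164 and 156 CPM in Axin1 libraries and 152, 160 and 132 CPM in control libraries. The ranges overlapped, and the log2 fold change of 0.09 had an interval of -0.17 to 0.34. Lrp10, a receptor that cycles between the Golgi and endosomes, had 58.6, 56.6 and 42.9 CPM in Axin1 libraries and 54.7, 63.6 and 58.1 CPM in control libraries, a log2 fold change of -0.16 (interval -0.50 to 0.19). Lrp12, a less studied relative, had 12.7, 11.8 and 13.5 CPM in Axin1 libraries and 12.8, 9.13 and 13.7 CPM in control libraries, a log2 fold change of 0.10 (interval -0.40 to 0.59). For all of these the ranges overlapped and the intervals included 0. The 3.26-fold difference of Lrp8 lies outside each of these intervals, although the differences between members were not tested.

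Sorl1, the sorting receptor, had 6, 63 and 62 reads in Axin1 libraries and 10, 45 and 18 reads in control libraries. In CPM it stood at 0.479, 4.34 and 5.36 in Axin1 libraries and 0.875, 3.45 and 1.65 in control libraries, with library 1 lowest in each group. Its log2 fold change of 0.75 had an interval of -1.18 to 2.69. Dab2, the adaptor, had 214, 390 and 936 CPM in Axin1 libraries and 201, 310 and 192 CPM in control libraries. Axin1 library 3 alone was above all others by a wide margin, and Axin1 library 1 lay inside the control range. The log2 fold change was 1.13 (SE 0.58, interval -0.33 to 2.59), and it was 0.37 without Axin1 library 3.

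Per length, the order of the 9 genes by their means was the same in both groups except that Lrp4 and Lrp10 changed places. Lrp8 ranked 4 in both, at different distances from the genes above it. In Axin1 libraries the deposited RPKM were 118 ± 87.5 for Dab2, 19.4 ± 1.08 for Lrp4, 17.4 ± 2.92 for Lrp10, 4.43 ± 1.29 for Lrp8 and 3.10 ± 0.16 for Lrp12 (SD, n = 3). In control libraries they were 53.3 ± 16.6 for Dab2, 19.2 ± 1.71 for Lrp10, 18.1 ± 1.58 for Lrp4, 14.4 ± 3.04 for Lrp8 and 2.88 ± 0.588 for Lrp12. Lrp4 and Lrp10 overlapped in both groups. Lrp8 met its neighbour Lrp4 in control libraries only at the edge (highest Lrp8 16.5 RPKM, lowest Lrp4 16.5 RPKM), and Lrp4 was above Lrp8 within each of the 3. In Axin1 libraries Lrp8 lay clear of Lrp10. Below these came Lrp1 with 1.91 ± 1.26 RPKM in Axin1 libraries and 1.22 ± 0.525 RPKM in control libraries. Sorl1, Vldlr and Lrp2 followed, each under 1 RPKM in every library, and Lrp1 overlapped both Lrp12 and Sorl1 in Axin1 libraries only.

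The sum of the RPKM of the 8 receptors, without the adaptor Dab2, was 45.3, 49.2 and 46.3 in Axin1 libraries and 50.3, 61.4 and 56.8 in control libraries. Lrp8 made up 7.90, 7.73 and 12.8% of that sum in Axin1 libraries and 21.6, 26.9 and 27.6% in control libraries. Lrp4 made up 41.1, 41.9 and 41.2% in Axin1 libraries and 36.1, 32.0 and 29.0% in control libraries, a share that depends on that of Lrp8. Lrp4 and Lrp10 together thus carried most of the receptor RNA per length in both groups.

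**Figure D2:**
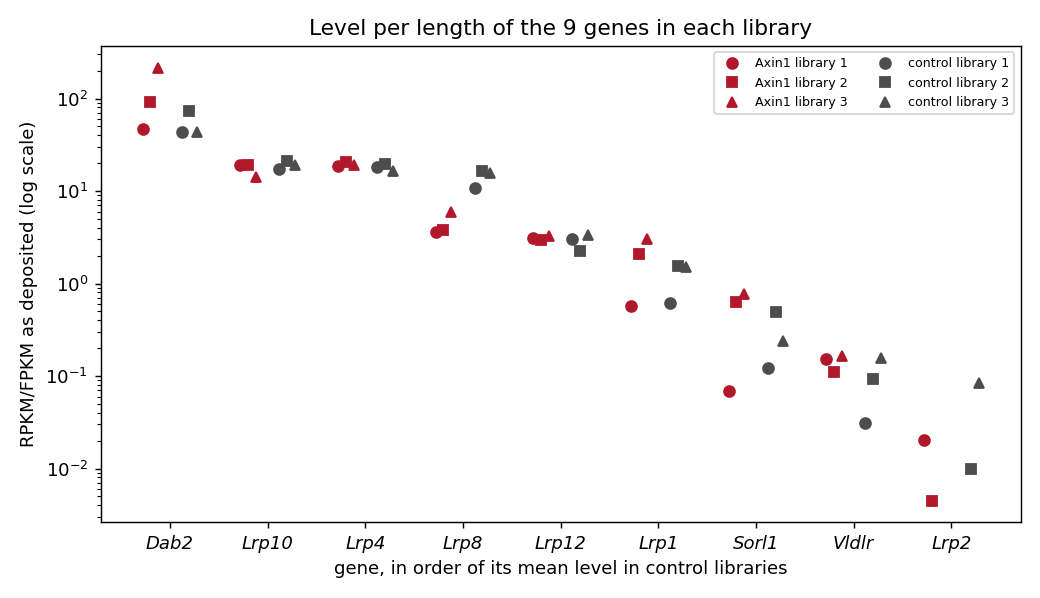
Deposited RPKM (log axis) of the 9 genes in each Axin1 library (red, left of each pair) and each control library (grey), ordered by the control mean; the 2 zeros of Lrp2 (Axin1 library 3 and control library 1) cannot be drawn. Lrp8 lies at 3.57 to 5.92 RPKM in Axin1 libraries and 10.9 to 16.5 RPKM in control libraries, reaching the lower edge of Lrp4 in the control libraries alone.

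Lrp1, Sorl1 and Dab2 varied together over the libraries, and markers of macrophages, cells that a CD31 sort can also hold, moved with them. The 15 macrophage and microglia markers summed to 615, 2110 and 3860 CPM in Axin1 libraries and to 1130, 1800 and 1280 CPM in control libraries. From lowest to highest, the 6 libraries stood in the same order for this sum, for Lrp1 and for Sorl1, and the 3 highest were the same for Dab2. Of the 15 markers, 14 were lowest in Axin1 library 1 and 15 highest in Axin1 library 3, and none was at 0 in any library. The median log2 fold change of the 15 was 1.13, with 14 positive and 1 negative. Of them 0 were called by edgeR, 0 had an unadjusted p under 0.05 and DESeq2 called 0. Over all genes tested by each method these shares were 0.845%, 17.2% and 5.49%. Other blood cell markers were lowest in Axin1 library 1 as well. Megakaryocyte and platelet markers, from cells that carry CD31, summed to 773, 2100 and 2740 CPM in Axin1 libraries and to 1680, 1600 and 1770 CPM in control libraries, also highest in Axin1 library 3. Erythroid markers summed to 262, 1310 and 2720 CPM in Axin1 libraries and to 740, 1890 and 3080 CPM in control libraries, highest in control library 3. The part of these cells in the values of Lrp1, Sorl1 and Dab2 was not tested.

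The genes whose log2 CPM followed these members most closely over the 6 libraries, among 10133 genes compared, are given as a description. For Lrp1 they were Cd226 (r = 0.995), Bank1 (0.990) and Cercam (0.989). For Sorl1 they were Lgals3bp (0.983), Slamf1 (0.982) and Lgals3, a galectin abundant in macrophages (0.982). For Dab2 they were Ell2 (0.996), the haem oxygenase gene Hmox1 (0.994) and Gas2l1 (0.993).

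The sequence before the RefSeq start of Lrp1, Sorl1 and Dab2 is shown because their levels moved together. The windows end at the start site, are given on the strand of the gene from 5′ to 3′, and lie in GRCm38.p6 at chr10:127621149-127621398 (minus strand), chr9:42124298-42124547 (minus strand) and chr15:6299539-6299787 (plus strand, 249 of 250 bases, the last base being exonic). Capitals mark a match to GAGGAA or its reverse complement TTCCTC, the core letters bound by the myeloid factor PU.1.
Lrp1: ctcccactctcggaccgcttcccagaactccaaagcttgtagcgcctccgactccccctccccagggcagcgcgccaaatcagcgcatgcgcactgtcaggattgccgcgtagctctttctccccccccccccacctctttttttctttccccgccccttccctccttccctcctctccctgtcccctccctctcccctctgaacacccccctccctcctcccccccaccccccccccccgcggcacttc
Sorl1: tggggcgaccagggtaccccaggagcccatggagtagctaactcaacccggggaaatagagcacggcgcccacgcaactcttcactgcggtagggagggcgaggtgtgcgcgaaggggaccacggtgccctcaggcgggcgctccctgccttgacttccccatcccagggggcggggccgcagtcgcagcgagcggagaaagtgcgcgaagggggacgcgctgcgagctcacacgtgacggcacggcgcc
Dab2: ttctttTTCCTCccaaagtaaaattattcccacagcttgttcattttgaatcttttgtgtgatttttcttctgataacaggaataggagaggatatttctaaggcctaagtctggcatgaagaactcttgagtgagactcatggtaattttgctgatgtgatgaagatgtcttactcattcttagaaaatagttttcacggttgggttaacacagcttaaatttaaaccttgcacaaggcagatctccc
A match was found once in the Dab2 window, 244 bases before the start, and in neither of the other windows. Of 32851 RefSeq windows of this length, 23.3% hold it on one strand or the other. The windows of Lrp1 and Sorl1 were 67.2% and 69.6% G or C, and that of Dab2 was 36.8%.

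Within each group, Lrp8 followed the macrophage sum in order as well, while over all 6 libraries the order for Lrp8 and the order for the sum differed. Axin1 library 3, with the largest macrophage sum of 3860 CPM, had 43.5 CPM of Lrp8, less than any control library. Axin1 library 1, with the smallest sum of 615 CPM, had 26.3 CPM. Neural cells are known to express Lrp8. The 12 neural markers other than Vim, Nes and Notch1, which endothelial cells also express and which were set aside after their values were seen, summed to 118, 174 and 199 CPM in Axin1 libraries and to 135, 181 and 269 CPM in control libraries. The groups overlapped, and control library 3 was highest. Stmn2 was the largest part of each of these sums except that of control library 3, where Tubb3 was. Tubb3, a neuronal tubulin gene, had 21.5, 50.5 and 55.0 CPM in Axin1 libraries and 14.4, 34.6 and 106 CPM in control libraries. Control library 3 was also highest for Fabp7 (41.9 CPM), Pax6 (11.2 CPM), Slc1a3 (6.53 CPM), Sox2 (4.04 CPM) and Neurod1 (3.95 CPM). It was highest as well for Neurog2 (0.919 CPM), Hes5 (0.368 CPM) and Lrp2. These neural markers were named after their values were seen. Control library 3 was not highest for the rest of the 12, Stmn2, Dcx, Elavl3 and Sox1, also named after their values were seen. Stmn2 had 75.3, 89.9 and 101 CPM in Axin1 libraries and 111, 124 and 84.7 CPM in control libraries, highest in control library 2. Dcx (7.95 CPM) and Sox1 (0.692 CPM) were highest in Axin1 library 3, and Elavl3 (4.34 CPM) in Axin1 library 2. Without control library 3 the log2 fold change of Lrp8 was -1.66 (adjusted p = 0.018, edgeR), in a fit that called 695 genes in place of 107. The part of macrophages or of neural cells in the values of Lrp8 was not tested. Of the 12 markers, 3 were at most 1 CPM in every library. Pericyte and mesenchyme markers, taken as 1 list, summed to 134 to 197 CPM in Axin1 libraries and 78.8 to 158 CPM in control libraries. Choroid plexus and epithelial markers, from the tissue in which Lrp2 is known to be abundant, summed to 10.8 to 14.8 CPM in Axin1 libraries and 10.3 to 13.1 CPM in control libraries. Aqp1 (5.33 to 11.0 CPM) was the largest part of each sum. Single markers, named after their values were seen, were uneven. Epcam had 2.02 CPM in control library 3 and at most 0.613 CPM elsewhere. Folr1 had 0.0864 to 0.16 CPM in Axin1 libraries and 0.69 to 0.919 CPM in control libraries. Ttr and Cdh1 were highest in Axin1 libraries 3 and 1 (1.04 CPM each).

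**Figure D3:**
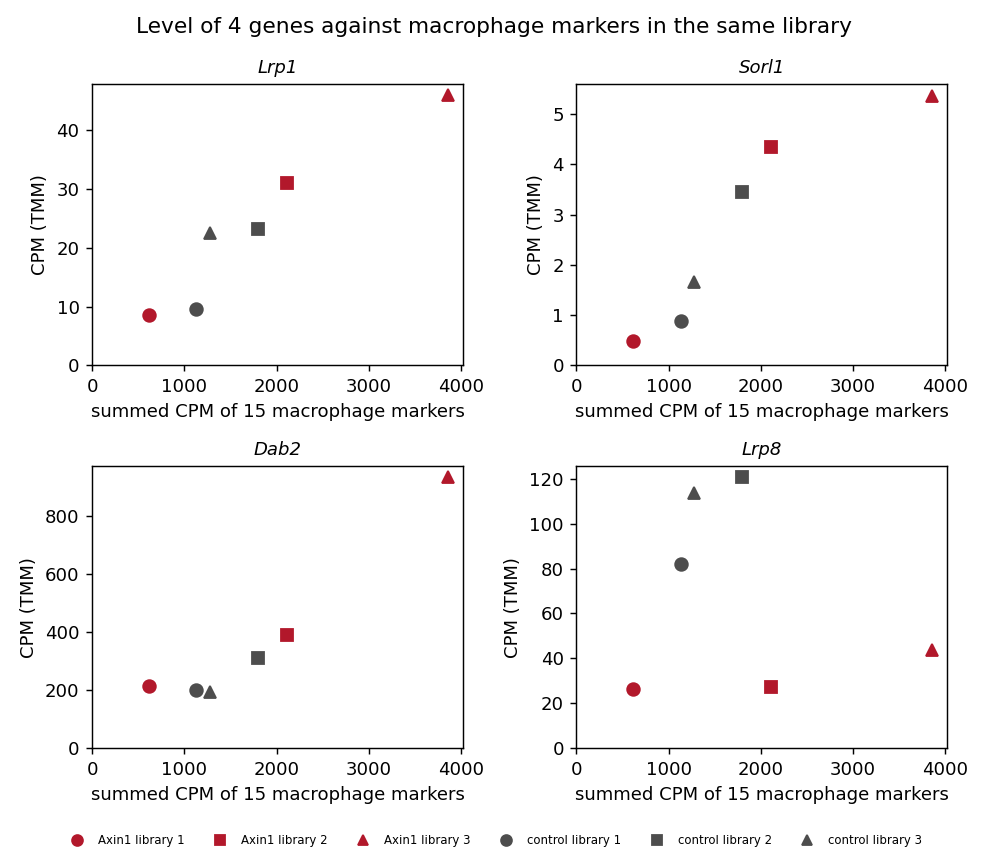
CPM of Lrp1, Sorl1, Dab2 and Lrp8 (vertical, linear axes from 0) against the summed CPM of 15 macrophage markers (horizontal) in the same library, for 3 Axin1 libraries (red) and 3 control libraries (grey). Axin1 library 3 is highest for Lrp1, Sorl1 and Dab2 at a macrophage sum of 3860 CPM, whereas for Lrp8 all 3 Axin1 libraries lie below the 3 control libraries.

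The genes closest to Lrp8 over the 6 libraries were Slc38a3, Agrn and Osmr, again as a description among 10133 genes. Slc38a3, a glutamine transporter, had an r of 0.999 and stood at 48.6, 51.1 and 88.9 CPM in Axin1 libraries and at 176, 254 and 253 CPM in control libraries (log2 fold change -1.86, SE 0.27, adjusted p = 0.0432, edgeR). Agrn, which encodes the heparan sulphate proteoglycan agrin, had an r of 0.996. Osmr, the oncostatin M receptor gene, had an r of 0.994, with 14.2 to 19.5 CPM in Axin1 libraries and 27.6 to 30.4 CPM in control libraries, and was not called (log2 fold change -0.86, adjusted p = 0.0647). All of these shared the gap between the groups, and all had Axin1 library 3 as the highest of the Axin1 libraries.

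Other genes of the pathway were looked at in 7 lists that share no gene with the 9 members. The lists were written with earlier results of these data known, so nothing is read from their counts. Of their 97 tested genes 3 were called (3.09%), 2 higher and 1 lower in Axin1 libraries, beside 0.845% of all tested genes. Their median log2 fold change was 0.09, beside 0.02 for all tested genes. The called genes were Rapgef1, Agrn and Rab11a. Of the 97, 21 had an unadjusted p under 0.05 by edgeR, and DESeq2 called 7. Beside these and the list counts that follow, 17.2% of all tested genes had an unadjusted p under 0.05. DESeq2 called 5.49% of the genes it gave an adjusted p.

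Among the reelin signalling genes, 1 of 17 tested was called by edgeR, 4 had an unadjusted p under 0.05 and DESeq2 called 2. The list median was 0.08. Reln, the ligand gene, was close to absent at 0, 0.0476 and 0.0219 RPKM in Axin1 libraries and 0.0288, 0.039 and 0.0628 RPKM in control libraries, and was not tested. Dab1, the adaptor that binds Lrp8 and Vldlr, had 1.84, 2.55 and 2.85 CPM in Axin1 libraries and 0.525, 0.613 and 4.6 CPM in control libraries, with control library 3 above and the other control libraries below the Axin1 range (log2 fold change 0.35, adjusted p = 0.868). Reln and Dab1 are named for their role, outside the rule for named genes. Rapgef1, a guanine nucleotide exchange factor downstream of Crk proteins, rose to 105 ± 7.40 CPM in Axin1 libraries, against 65.6 ± 2.62 CPM in control libraries (log2 fold change 0.68, SE 0.11, adjusted p = 0.0432). Src, one of the kinases that can phosphorylate Dab1, had 16.3 ± 0.37 CPM in Axin1 libraries and 26.7 ± 3.54 CPM in control libraries and missed the threshold (log2 fold change -0.71, adjusted p = 0.0916). Gsk3b, a kinase shared by the reelin and beta-catenin pathways, had 426 ± 13.4 CPM in Axin1 libraries and 312 ± 53.3 CPM in control libraries (log2 fold change 0.45, adjusted p = 0.152). Pik3r1, a regulatory subunit of PI3 kinase, had a log2 fold change of 0.43 (adjusted p = 0.233).

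Of 20 tested ligand genes, 1 was called by edgeR, 4 had an unadjusted p under 0.05 and DESeq2 called 2. The median was 0.19. Agrn, whose product binds Lrp4, fell to 204, 197 and 233 CPM in Axin1 libraries, against 321, 373 and 360 CPM in control libraries (log2 fold change -0.73, SE 0.11, adjusted p = 0.038). Its receptor gene Lrp4 had a log2 fold change of 0.09 in the same libraries. Sepp1, which encodes selenoprotein P, a ligand of Lrp8 and Lrp2, had 388 ± 162 CPM in Axin1 libraries and 711 ± 122 CPM in control libraries without passing the threshold (log2 fold change -0.87, adjusted p = 0.233). Serpine2, a protease inhibitor cleared through Lrp1, had 131 ± 25.2 CPM in Axin1 libraries and 46.5 ± 34.0 CPM in control libraries (log2 fold change 1.5, adjusted p = 0.245), and Lipc, hepatic lipase, had a log2 fold change of 1.32 (adjusted p = 0.286). Apoe, named for its role as the apolipoprotein ligand of the family, had 37.6, 253 and 420 CPM in Axin1 libraries and 42.7, 71.0 and 48.5 CPM in control libraries. Its lowest and highest libraries were Axin1 libraries 1 and 3, as for Lrp1 and the macrophage sum (log2 fold change 2.13, adjusted p = 0.306).

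Of 21 tested genes for receptor folding, turnover and trafficking, 1 was called by edgeR, 3 had an unadjusted p under 0.05 and DESeq2 called 2. The list median was 0.01. Rab11a, a GTPase of recycling endosomes, rose to 209, 286 and 260 CPM in Axin1 libraries, against 102, 126 and 128 CPM in control libraries (log2 fold change 1.09, SE 0.15, adjusted p = 0.0347). Mesdc2, the chaperone of LDL receptor related proteins, had 133 ± 9.82 CPM in Axin1 libraries and 185 ± 1.67 CPM in control libraries, with no overlap, and missed the threshold (log2 fold change -0.47, adjusted p = 0.0770). Lrpap1, the receptor-associated protein, had a log2 fold change of -0.20 (adjusted p = 0.405). Rab4a, a GTPase of early endosomes, had a log2 fold change of 0.81 (adjusted p = 0.199). Mylip, the ubiquitin ligase that directs Vldlr and Lrp8 to degradation, had one of 0.65 (adjusted p = 0.291).

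Among 22 tested endocytic adaptor and coat genes 0 were called by edgeR, 5 had an unadjusted p under 0.05 and DESeq2 called 1, Clta. Clta, a clathrin light chain, had 70.2 ± 17.4 CPM in Axin1 libraries and 42.0 ± 1.05 CPM in control libraries (log2 fold change 0.74, adjusted p = 0.105, edgeR). The AP-2 subunit genes Ap2a2 and Ap2s1 had log2 fold changes of -0.36 and -0.39 (adjusted p = 0.156 and 0.163). Among 9 tested sterol-regulated partners 0 were called by edgeR, 1 had an unadjusted p under 0.05 and DESeq2 called 0. The log2 fold changes were 0.32 for the cholesterol exporter gene Abcg1 (adjusted p = 0.213), 0.29 for Insig1, a brake on sterol synthesis (0.353), and -0.38 for the exporter gene Abca1 (0.434).

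Of 6 tested further LDL receptor related genes 0 were called by edgeR, 3 had an unadjusted p under 0.05 and DESeq2 called 0. The Wnt co-receptor Lrp5 had 23.0 ± 2.93 CPM in Axin1 libraries and 15.4 ± 4.79 CPM in control libraries (log2 fold change 0.58, adjusted p = 0.268), and Lrp6, the other Wnt co-receptor, had a log2 fold change of 0.15 (adjusted p = 0.634). Ldlrad2 had a log2 fold change of 1.25 at 1.68 ± 0.108 CPM in Axin1 libraries and 0.700 ± 0.125 CPM in control libraries (adjusted p = 0.229), and Ldlrad3 one of -0.46 (adjusted p = 0.277). Of 2 tested VPS10 receptors, relatives of Sorl1, 0 were called by edgeR, 1 had an unadjusted p under 0.05 and DESeq2 called 0. Sort1 had 19.0 ± 2.05 CPM in Axin1 libraries and 26.5 ± 4.83 CPM in control libraries (log2 fold change -0.48, adjusted p = 0.246), and Sorcs2 had a log2 fold change of -0.07 (adjusted p = 0.967) whose sign changed with the setting.

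**Figure D4:**
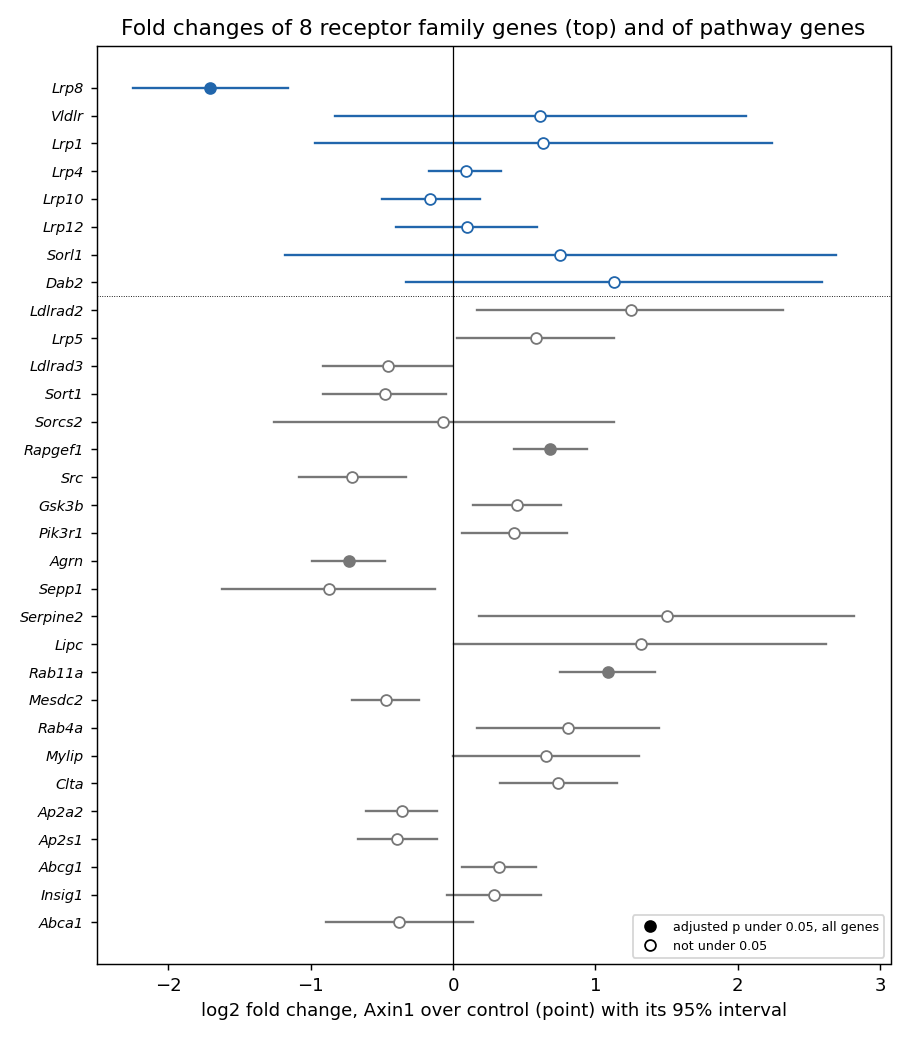
Log2 fold change of Axin1 over control libraries (points, 0 marked by the vertical line) with 95% intervals for the 8 tested receptor family genes (blue, top) and pathway genes named by rule (grey); filled points have an adjusted p under 0.05 over all genes. Lrp8 at -1.71, Rapgef1 at 0.68, Agrn at -0.73 and Rab11a at 1.09 are the filled points.

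The calls of the pathway genes changed when single libraries were left out. Agrn was called in 9 of 14 alternatives and lost without Axin1 library 1 (adjusted p = 0.0770), 2 (0.152) or 3 (0.0632), or control library 1 (0.104) or 2 (0.198). Rab11a was called in 10 of 14 and lost without Axin1 library 2 (0.146) or 3 (0.0688), or control library 1 (0.116) or 2 (0.198). Rapgef1 was called in 6 of 14 and lost without Axin1 library 1 (0.0874), 2 (0.158) or 3 (0.0763), or control library 1 (0.155) or 2 (0.208), as well as with limma on log2 RPKM (0.0601 and 0.0603). Rapgef1 was also lost with a block for the replicate number of the descriptions (0.0628). Other list genes passed in some alternatives. DESeq2 also called Clta, Mesdc2, Sepp1 and Src. Apoe passed without Axin1 library 1 (log2 fold change 2.63, adjusted p = 0.0361), and without control library 3 Serpine2 (0.00138), Rab4a (0.0171) and Srebf1 (0.0416), named after its value was seen, passed as well. With a block for the title number, which pairs 4 libraries only, list genes that passed beside the called ones were Serpine2 (7.47e-07), Sepp1 (2.63e-07), Abca1 (0.00116), Rab4a (0.00223), Abcg1 (0.00541), Lrp5 (0.00789) and Mesdc2 (0.0281). Srebf1 (0.0129), Ctgf (0.0152) and Crkl (0.0241), named after their values were seen, passed in that fit too.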

How the data were processed

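RNA sequencing of CD31-sorted brain endothelial cells gave 6 libraries, 3 Axin1 and 3 control, grouped by their descriptions. Each library's table, as the authors deposited it, lists reads (a raw count) and RPKM/FPKM for 22958 entries with RefSeq identifiers. Bowtie and mm9 come from the submitters' processing notes. Their versions, the counting rules and the strand setting were not given in the sources used here. Counts of Lrp10, Sorl1 and Dab2 are therefore uncertain, since the antisense genes Gm10366 and Gm16214 and the pseudogene Gm18888 share exonic bases with them on the other strand. The deposited RPKM served for levels between genes and for limma.

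Counts were tested with edgeR 4.0.16 (R 4.3.3; quasi-likelihood, robust, TMM, filterByExpr with a minimum count of 10 and total of 15, no covariates), with Benjamini-Hochberg adjustment over 12661 genes at 0.05. Intervals are 95%. The model was tested on simulated data. Alternatives were DESeq2 1.42.0, median-ratio factors, no filter, a filter of 1 CPM in 3 libraries, limma 3.58.1 on log2(RPKM + 1) and log2(RPKM + 0.1), replicate blocks and leaving out each library. Levels are mean ± SD over 3 libraries. Normalisation factors were 0.975 to 1.02.

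Members and lists were chosen with earlier results of these data known. Named genes were the 9 members, Axin1, Pecam1 and Cdh5, leading markers, each list gene past the threshold and the 3 others with the smallest p, and the 3 genes with the highest Pearson r of log2 CPM (prior count 2) to a member, among genes of at least 5 CPM. Of the list genes, 3 were not found. Reference sequences are RefSeq's, of another build than mm9, and no gene coordinates were converted. The Lrp8 windows were not used here. Values of 1 list gene are not reported here.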

Additional observations from a re-analysis of the deposited data

How the results depend on the processing

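The number of genes called was 107, and it was 695 with DESeq2, 197 with no low-count filter and 0 to 695 when one library was left out. The counts of 0 by edgeR came without Axin1 library 2 (1733 genes at an unadjusted p under 0.05) and without control library 2 (1539). Pathway list genes called were 3, and 7 with DESeq2 and 0 to 6 with a library left out; members called were 0 to 1. The titles give 1813 to library 1 and 1814 to library 2 of both groups, while control library 3 has 2198 and Axin1 library 3 has 1961. Deviations from the group means had r of 0.234 between libraries 1, 0.152 between libraries 2 and -0.023 between libraries 3. Axin1 libraries 1 and 2 each followed the control library with the same title number most closely. Axin1 library 3 followed control library 2 most closely (0.175). Whether the libraries are paired was not tested, and a pairing was not shown. With a block for the replicate number of the descriptions 105 genes were called, and Lrp8 stood at -1.72 (adjusted p = 0.0115, edgeR). With a block for the title number, which pairs 4 libraries only, 1500 genes and 13 list genes were called, and Lrp8 stood at -1.90. Sorcs2, at -0.07, changed sign with limma at a pseudocount of 0.1 (0.00), with the description block (0.01), with the title block (0.66) and over left-out libraries (-0.44 to 0.35). Pecam1 ranged from -0.15 to 0.00 over left-out libraries. Sorl1 ranged from -0.08 to 1.42, Lrp12 from -0.06 to 0.20 and Dab2 from 0.21 to 1.5 over the 14 alternatives, and none of these was called in any. The cause of these changes was not tested. Vldlr and Lrp2 had under 20 reads in every library, so their values are imprecise.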
